A study of Mus musculus with 4 samples.

Results

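Homeobox genes encode transcription factors that bind DNA through a homeodomain, and outside the Hox clusters several of them give cells of the limb and body wall their place. The 9 genes described here are the paired-type factors Pitx1, Shox2 and Alx4, the engrailed factor En1, the empty spiracles factor Emx2, the muscle segment factor Msx1, the LIM homeodomain factor Lmx1b, and the TALE factors Meis1 and Meis2. They were taken by name, with earlier results of these data known, from the 54842 gene identifiers of a deposited count table. All 9 were found there once each. The table holds 4 libraries of ribosomal RNA-depleted total RNA from mouse embryonic fibroblasts (MEF cells), 2 labelled wild-type (wt) and 2 labelled Top2beta null (Top2β-null), all of them untreated and without any further allele or agent named. Top2β is a DNA topoisomerase that, like Top2α, cuts and rejoins both strands of the helix, and it is made throughout the cell cycle. The Top2β-null cells came from Top2β-null mice and were a gift of other laboratories. The study cites another source for its MEF cells in general and does not name that of the wt cells compared here. Genotype and origin of the cells therefore cannot be told apart. The age of the embryos and the part of the embryo they were made from were not given in the sources used here.

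These factors are known as follows. In the limb bud Pitx1 marks the hindlimb, Shox2 acts in the proximal segment, Alx4 in the anterior margin, En1 in the ventral ectoderm, Lmx1b in the dorsal mesenchyme, and Msx1 in the distal mesenchyme and other places of BMP signalling. Meis1 and Meis2 are made in the proximal limb and bind DNA together with PBX proteins. Emx2 is needed for the urogenital tract and the shoulder blade and is also a factor of the developing forebrain. In cultured fibroblasts such genes are often used as a record of the site the cells came from.

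The 4 libraries summed to between 133116830 and 149647278 counts. The Top2b gene itself gave 18259 and 18465 normalized counts in wt and 3879 and 3789 in Top2β-null MEF cells, so that 20.9% of the wt level remained in the libraries labelled null. Which exons the null allele lacks was not given in the sources used here, and reads of the other exons count too. By Western blot, the study found no Top2β protein in its Top2β-null MEF cells. A normalized count is a read count divided by its library's effective size, from edgeR's TMM factors, and multiplied by the geometric mean of those sizes. Of 10 fibroblast markers, 9 were expressed in all libraries and Fap had at most 2 counts, while Col1a1 and Col3a1 were called lower and Pdgfra, Pdgfrb and Thy1 higher in Top2β-null MEF cells. The summed level of 4 neural markers lay at 2061 and 2045 in wt and at 5012 and 5337 in Top2β-null MEF cells. Within that list Sox2 went from 0 in both wt libraries to 677 and 730, Tubb3 was called higher, Sox10 had 39.4 and 37.7 in wt and 12.4 and 9.90 in Top2β-null MEF cells, and Foxd3 was at 0 in every library. The 6 leukocyte markers summed to 2417 and 2497 against 1348 and 1353. Among them Cd68 was called lower, the other 3 tested had an edgeR adjusted p below 0.05 in the other direction and were not called, and Tyrobp was at 0. These 3 were Csf1r at 0.36 and Fcer1g at 0.74 on the log2 scale, and Itgam, with 1 count in each wt library and 27 and 29 counts in the Top2β-null libraries. The 5 endothelial markers summed to 165 and 162 against 252 and 259, with Kdr called higher and Pecam1 at -0.50, Cdh5 at -0.16 and Tek at -2.54 on the log2 scale and not called. The 6 epithelial markers summed to 73.7 and 72.4 against 22.8 and 25.8, and the 5 muscle markers to 88.8 and 139 against 3.11 and 0.990 with Myf5, Myog and Pax7 at 0. No epithelial or muscle marker reached the mean cut-off, but by an edgeR adjusted p below 0.05 alone Krt8, Cdh1 and Des were lower, with Krt8 at 45.4 in each wt library and at 6.21 and 3.96 in Top2β-null MEF cells, and Des at 88.8 and 139 against 2.07 and 0.990. The part of other cell types in the results that follow was not tested. In bulk RNA, fewer cells of a kind and less RNA per cell cannot be told apart. The labels do not say whether replicates are separate cultures, so the p-values measure the spread between these libraries, which may be technical.

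The promoter sequences of the 3 genes that were called different between the genotypes are shown so that the genes can be read where they lie. Msx1 (ENSMUSG00000048450.10) occupies chr5:37820485-37824583 on the minus strand, Shox2 (ENSMUSG00000027833.16) chr3:66971727-66981771 on the minus strand, and En1 (ENSMUSG00000058665.8) chr1:120602418-120607992 on the plus strand, all on GRCm38. The printed bases are RefSeq's for GRCm38.p6 and end before the start of the gene in both RefSeq and GENCODE, at chr5:37824586-37824835 for Msx1, chr3:66981772-66982021 for Shox2 and chr1:120602237-120602417 for En1. They read 5′ to 3′ on the strand of the gene. Capitals mark TAAT, the core of many homeodomain sites, and CCAAT, the CCAAT box, each on either strand, where the other strand reads ATTA or ATTGG.
Msx1: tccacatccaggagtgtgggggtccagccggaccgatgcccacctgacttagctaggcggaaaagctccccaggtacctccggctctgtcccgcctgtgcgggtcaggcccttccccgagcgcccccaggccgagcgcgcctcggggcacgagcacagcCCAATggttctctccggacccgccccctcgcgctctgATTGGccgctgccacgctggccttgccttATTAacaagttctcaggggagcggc
Shox2: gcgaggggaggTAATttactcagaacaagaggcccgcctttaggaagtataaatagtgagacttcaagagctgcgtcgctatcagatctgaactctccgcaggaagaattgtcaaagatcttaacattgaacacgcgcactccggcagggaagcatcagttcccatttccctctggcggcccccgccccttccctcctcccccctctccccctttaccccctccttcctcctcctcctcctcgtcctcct
En1: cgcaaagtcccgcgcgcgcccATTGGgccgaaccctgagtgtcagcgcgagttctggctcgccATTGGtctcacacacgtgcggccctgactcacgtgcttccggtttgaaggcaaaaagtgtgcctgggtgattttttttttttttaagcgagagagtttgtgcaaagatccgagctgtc

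The 250 bases before Msx1 were 68% G or C and held 20 CpG, those before Shox2 were 55.6% G or C with 11 CpG, and the 181 bases before En1 were 55.2% G or C with 15 CpG. A TAAT core was found once before Msx1 and once before Shox2 and was not found before En1. Of the 32851 RefSeq promoters, 54.9% hold TAAT in the same 250-base window and 47.8% in the shorter window used for En1. A CCAAT box was found 2 times before Msx1 and 2 times before En1, in windows where 33.8% and 25.2% of all promoters hold it. TATAAA was found once, before Shox2, against 12.4% of all promoters. The GC box GGGCGG was found once before Msx1 and once before Shox2, against 32.7% of all promoters, and TGACAG, the hexamer bound by MEIS proteins, was found before none of the 3 genes. All motifs were searched on both strands, and these motifs did not overlap one another. RefSeq entries were matched for 7 of the 9 genes.

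Between wt and Top2β-null MEF cells, Shox2 and Msx1 were higher and En1 was lower in the Top2β-null cells. A gene was called when its adjusted p was below 0.05, its absolute log2 fold change above 1 and its mean normalized count above 100, the cut-offs of the study's methods, applied to the quasi-likelihood F test of edgeR, with Benjamini-Hochberg adjustment over 26566 genes and repeat families. By this rule 2 of the 9 genes were called higher and 1 lower, 4 were tested and not called, and 2 had too few counts to be tested. Over all 25085 genes tested, 10.8% were called, with 5.52% of the tested genes higher and 5.25% lower. By an adjusted p below 0.05 alone, 3 of the genes were higher and 2 lower, in a table where 66.4% of all genes tested passed the same cut-off. The median log2 fold change of the 7 tested genes was -0.07, and that of all genes tested was -0.01, with a median size of 0.42 regardless of sign. The median of the 7 is the same with Msx1 placed at its lower bound. Every named difference is Top2β-null minus wt.

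**Figure D1:**
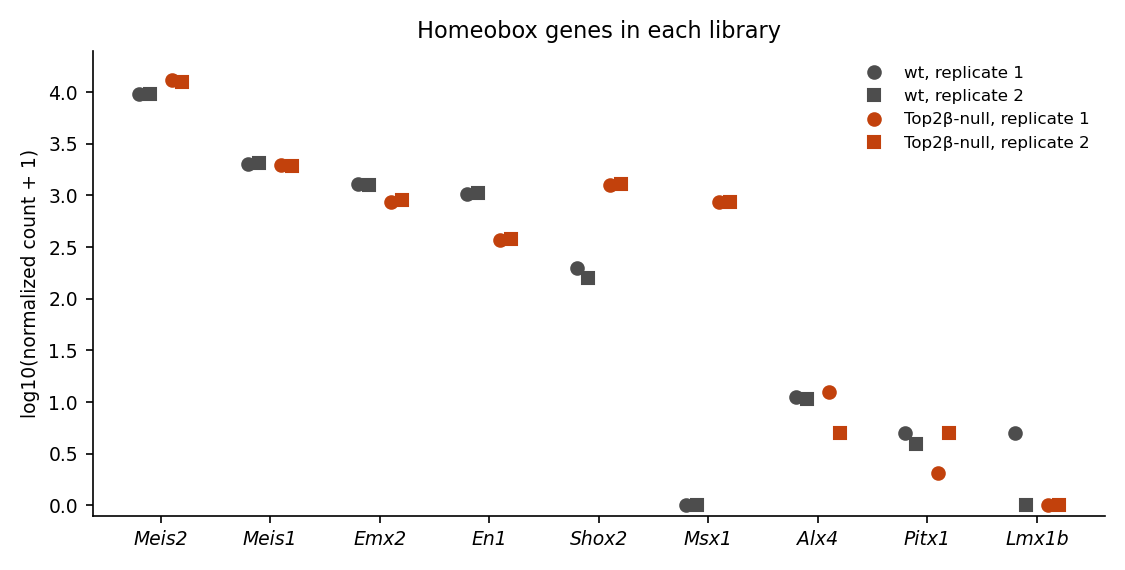
Normalized counts of the 9 homeobox genes in each of the 4 libraries, as log10 of the normalized count plus 1 (vertical axis), in grey for wt and orange for Top2β-null, with circles for replicate 1 and squares for replicate 2. Msx1 lies at 0 in both wt libraries and at 859 and 869 normalized counts in the Top2β-null libraries, while Pitx1 and Lmx1b do not exceed 4.04 normalized counts in any library.

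Msx1 is a repressor that keeps mesenchyme of the limb tip, the tooth and the skull undifferentiated. No read was counted for it in wt replicate 1 or wt replicate 2, whereas Top2β-null replicates 1 and 2 gave 829 and 877 counts, or 859 and 869 normalized counts. Both Top2β-null libraries were thus far above both wt libraries, which were empty for this gene. The Top2β-null mean was 864 ± 7.09 (SD, n = 2). Against the limit that 0 counts allow, taken as 3 counts per library, Msx1 was at least 291-fold higher in Top2β-null MEF cells (edgeR adjusted p = 4.7e-15). Over the whole table, 147 genes had at most 3 counts in each wt library and passed the mean cut-off in Top2β-null MEF cells.

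By the distance between centred log2 normalized counts over the 4 libraries, with a pseudocount of 0.5, the nearest genes to Msx1 among 16656 genes over the mean cut-off were Grik2 and Chn2. Grik2, a kainate receptor subunit, had 0 in both wt libraries and 818 and 833 normalized counts in Top2β-null MEF cells, at a distance of 0.0653. Chn2, a GTPase-activating protein for Rac, had 0 in both wt libraries and 795 and 803 in Top2β-null MEF cells, at a distance of 0.112. With 4 libraries in 2 groups, nearness of this kind says little beyond a like step between the genotypes.

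Shox2 is a paired-type factor needed for the upper bones of the limb and for the pacemaker of the heart. It had 197 and 156 normalized counts in wt and 1265 and 1282 in Top2β-null MEF cells. The wt libraries differed from each other by more than the Top2β-null libraries did, and the groups lay well apart. The means were 177 ± 28.5 (SD, n = 2) and 1273 ± 12.1 (SD, n = 2), 7.21-fold apart, and the log2 fold change was 2.85 (SE 0.0851, edgeR adjusted p = 4.6e-14). The gene body of Rsrc1, which runs on the opposite strand, overlaps that of Shox2 by 382 bases. Rsrc1, a factor of pre-mRNA splicing, was far more abundant in counts, with 3666 and 3888 in wt and 4587 and 4738 in Top2β-null MEF cells (log2 fold change 0.30, not called). The libraries were made with a stranded kit, but the strand setting of the counting was not given in the sources used here, so the part of Rsrc1 reads in the Shox2 count was not tested.

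The paired-type factors Pitx1 and Alx4 were close to the limit of detection in every library. Pitx1 had 4 and 3 counts in wt and 1 and 4 in Top2β-null MEF cells, too few for a test. Pitx1 lies at chr13:55825051-55836192. Gm47071, an annotated antisense RNA of which 9943 bases overlap Pitx1 and most of the length lies outside it, had 1039 and 971 normalized counts in wt and 1660 and 1621 in Top2β-null MEF cells. Gm47071 lay higher in both Top2β-null libraries (log2 fold change 0.71, SE 0.0539, edgeR adjusted p = 7.4e-09) without passing the fold cut-off, and where along the gene its reads lie was not examined. Alx4, at chr2:93642384-93681339, had 10.1 and 9.66 normalized counts in wt and 11.4 and 3.96 in Top2β-null MEF cells. The wt values fell between the Top2β-null values, and the log2 fold change of -0.37 (SE 0.549, edgeR adjusted p = 0.577) turned to 0.22 without Top2β-null replicate 2, so no direction was detectable at this depth. The low Alx4 count is overlapped for 20312 bases by Ext2, a heparan sulfate polymerase gene on the other strand, at 7436 and 7587 normalized counts in wt and 6088 and 6182 in Top2β-null MEF cells.

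En1 fell in Top2β-null MEF cells. This engrailed repressor, which holds the ventral side of the limb bud ventral and marks a lineage of dermal fibroblasts in the skin of the back, had 1026 and 1042 normalized counts in wt and 370 and 376 in Top2β-null MEF cells. The groups did not overlap, and each pair of replicates lay close together. The means of 1034 ± 11.1 and 373 ± 4.69 (SD, n = 2 each) left 36.1% of the wt level, which is 2.77-fold lower, at a log2 fold change of -1.47 (SE 0.0656, edgeR adjusted p = 7.9e-12). No annotated gene overlaps En1.

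Nearest to En1 in pattern were Slc39a14 and Spsb4. Slc39a14, a zinc and iron importer, went from 11656 and 11779 normalized counts to 4177 and 4346, at a distance of 0.0252. Spsb4, an adaptor of a ubiquitin ligase, went from 501 and 509 to 183 and 187, at a distance of 0.0264.

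Emx2 was lower too but was not called. It had 1286 and 1273 normalized counts in wt and 870 and 893 in Top2β-null MEF cells, with no overlap between the groups. The means were 1279 ± 9.06 and 882 ± 16.5 (SD, n = 2 each), and the log2 fold change of -0.54 (SE 0.0542, edgeR adjusted p = 2.4e-07) is under the cut-off for its size. Emx2 lies at chr19:59458372-59465357, and its antisense gene Emx2os, which shares 264 bases with it head to head, had 282 and 300 normalized counts in wt and 211 and 217 in Top2β-null MEF cells. Emx2os moved the same way by a similar amount (log2 fold change -0.44, SE 0.106, edgeR adjusted p = 0.0017), and it was not called either.

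Lmx1b, the dorsal counterpart of En1, was nearly undetected. It had 4 counts in wt replicate 1 and 0 in each of the other 3 libraries. Its gene at chr2:33560965-33640511 could not be tested.

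Both TALE genes were expressed in every library, and neither was called. Meis1, at chr11:18879817-19018985, had 2034 and 2064 normalized counts in wt and 1972 and 1943 in Top2β-null MEF cells. Its log2 fold change of -0.07 (SE 0.0444, edgeR adjusted p = 0.208) did not pass the test, and it became 0.0039 when libraries were scaled to their total counts. Inside the Meis1 locus lie 5 short annotated RNAs, antisense or on its own strand, at 60.6 to 226 normalized counts, and none of them was called. Only Gm37818 lay over the mean cut-off, so the others could not be called. Meis2, at chr2:115863064-116065839, had 9580 and 9625 normalized counts in wt and 13150 and 12604 in Top2β-null MEF cells. Both Top2β-null libraries were above both wt libraries, and the means of 9603 ± 31.7 and 12877 ± 386 (SD, n = 2 each) were 1.34-fold apart. This gave a log2 fold change of 0.42 (SE 0.0270, edgeR adjusted p = 7.8e-10), close to the median size of the log2 fold change, regardless of sign, over all genes tested.

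**Figure D2:**
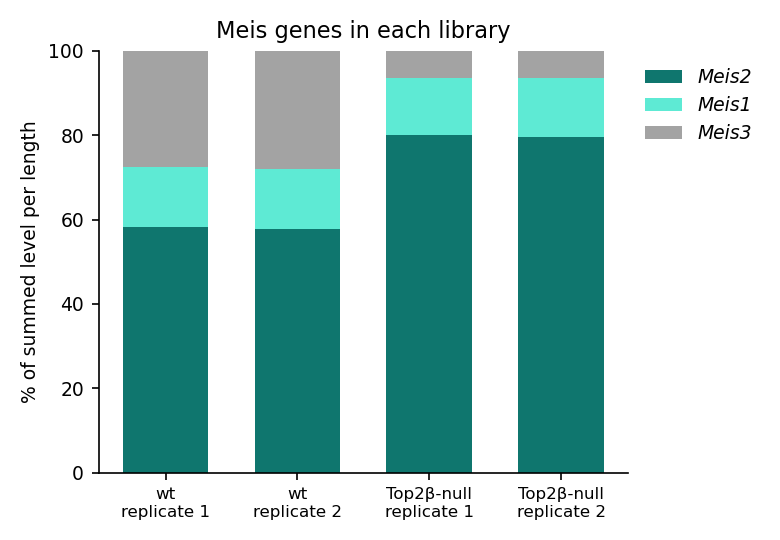
Share of Meis1, Meis2 and Meis3 in their summed level per length, in percent (vertical axis), in each of the 4 libraries as stacked bars. Meis2 takes 58.0% in wt and 79.8% in the Top2β-null cells on average, Meis3 goes from 27.8% to 6.37%, and Meis1 stays between 13.7% and 14.2% in every library.

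The 3 MEIS genes bind the same hexamer and can be set side by side once counts are divided by exon length. Meis1 made up 19.6% ± 0.113 of the summed level of Meis1 and Meis2 per length in wt and 14.8% ± 0.247 in the Top2β-null cells (SD, n = 2 each). With Meis3 included, the share of Meis2 went from 58.0% ± 0.322 to 79.8% ± 0.222 and that of Meis3 from 27.8% ± 0.298 to 6.37% ± 0.0112, while the share of Meis1 was 14.2% ± 0.0232 and 13.9% ± 0.233. The libraries of both genotypes did not overlap in any of the 3 shares. Those of Meis1 lay close, at 14.1% and 14.2% in wt and 13.7% and 14.0% in the Top2β-null cells. No test was run on these shares. Meis3 itself had 1196 and 1230 normalized counts in wt and 277 and 265 in Top2β-null MEF cells and was called lower (log2 fold change -2.16, SE 0.0685, edgeR adjusted p = 9.7e-14).

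In normalized counts per kb of exon, Meis2 stood first in both genotypes, at 797 ± 2.63 in wt and 1069 ± 32.0 in the Top2β-null cells (SD, n = 2 each, as for all levels in this paragraph). In wt MEF cells it was followed by Emx2 at 426 ± 3.02, En1 at 394 ± 4.24, Meis1 at 195 ± 2.04 and Shox2 at 53.4 ± 8.62, and these 5 levels were farther apart than their spread. Alx4 at 1.40 ± 0.0435, Pitx1 at 1.31 ± 0.303 and Lmx1b at 0.414 ± 0.585 followed, and Msx1 was last at 0. Of these, Alx4 and Pitx1 lay within their spread, as did Lmx1b and Msx1. In Top2β-null MEF cells the order was Meis2, Shox2 at 385 ± 3.64, Emx2 at 294 ± 5.51, Msx1 at 279 ± 2.29, Meis1 at 186 ± 1.93 and En1 at 142 ± 1.79. Neighbours among these 6 again lay farther apart than their spread. Alx4 at 1.09 ± 0.744, Pitx1 at 0.941 ± 0.779 and Lmx1b at 0 came last, the first of these pairs within its spread. Shox2 moved from rank 5 to rank 2, Msx1 from rank 9, not separated from rank 8, to rank 4, and En1 from rank 3 to rank 6.

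**Figure D3:**
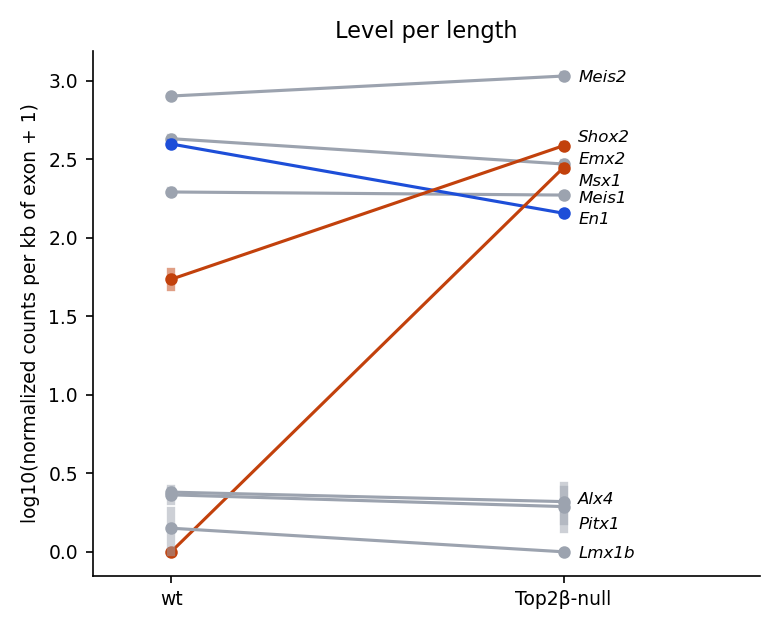
Mean level per length of the 9 genes in wt and Top2β-null MEF cells, as log10 of normalized counts per kb of exon plus 1 (vertical axis), with thick bars that join the 2 libraries of a group. The lines of Msx1 and Shox2, called higher, cross that of En1, called lower, and the 3 genes at the bottom do not exceed 1.40 per kb on average.

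Among the paralogues of the 9 genes, 8 are reported here. Of these 8, Alx1 and Lmx1a were at 0 in all libraries, 5 others had too few counts to be tested, and Meis3, given above, was tested and called lower. Msx2, the paralogue of Msx1, lay between 0 and 12.6 normalized counts in every library and was not tested.

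Partner proteins of these factors were expressed in every library. Of the 12 genes for PBX, PKNOX, LDB and Groucho/TLE proteins that are reported here, 1 was called lower, while by an adjusted p below 0.05 alone 5 were higher and 7 lower, beside 10.8% of all tested genes called and 66.4% below that adjusted p. The called gene was Ldb2, which bridges LIM homeodomain factors such as Lmx1b, with 481 and 518 normalized counts in wt and 224 and 258 in Top2β-null MEF cells. Its log2 fold change of -1.05 (SE 0.0944, edgeR adjusted p = 5.8e-08) is near the cut-off and was -0.98 with total-count scaling and -0.92 without Top2β-null replicate 1, where it was no longer called. Among the 11 partners not called, Pbx3 at 0.78, Ldb1 at 0.59, Pbx4 at -0.84 and Pknox2 at -0.89 had the log2 fold changes of largest size.

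**Figure D4:**
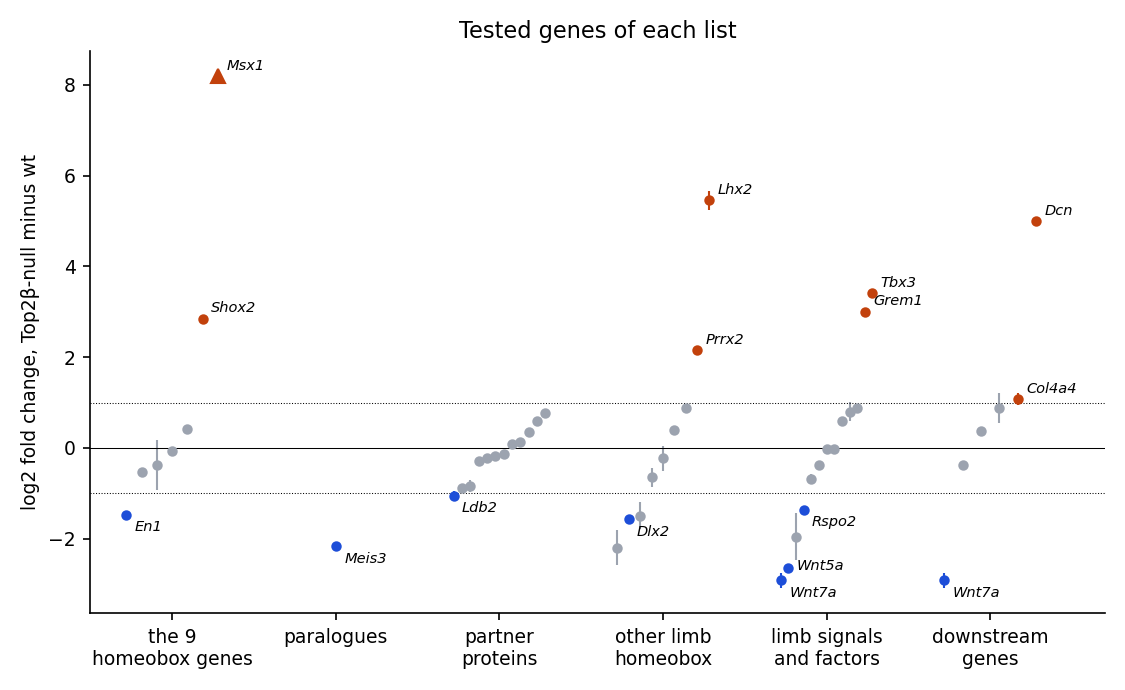
Log2 fold change, Top2β-null minus wt (vertical axis), of every tested gene in 6 lists, the 9 homeobox genes at the left, with bars of 1 SE. Msx1 is drawn at its lower bound, and called genes lie on both sides of 0 in 4 of the 6 lists, with a single called gene, lower, among the paralogues and among the partner proteins shown.

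Other homeobox genes of the limb were taken as a list of 16, of which 9 were tested, 2 called higher and 1 lower, where 10.8% of all tested genes were called, and Isl1 and Barx2 were at 0 in all libraries. Lhx2, a LIM homeodomain factor of the distal limb, had 6.06 and 11.6 normalized counts in wt and 384 and 406 in Top2β-null MEF cells (log2 fold change 5.46, SE 0.208, edgeR adjusted p = 1.0e-12). Prrx2, a paired-related factor of mesenchyme, rose 4.47-fold from 1497 and 1572 to 6739 and 6986 (edgeR adjusted p = 6.1e-17). Its close relative Prrx1, much the most abundant of the list in counts, had 40075 and 39484 in wt and 51615 and 53318 in Top2β-null MEF cells and was not called (log2 fold change 0.40). Dlx2 fell from 1112 and 1142 to 366 and 393 (log2 fold change -1.57, SE 0.0665, edgeR adjusted p = 4.1e-12), while Dlx1, its neighbour in the same gene pair, had a log2 fold change of 0.88 and was not called. Below the mean cut-off, Dlx5 had a log2 fold change of -2.19 (SE 0.385, edgeR adjusted p = 0.00011) and Dlx6 of -1.49 (SE 0.293, edgeR adjusted p = 0.00031), while the groups overlapped for Dlx4 (log2 fold change -0.23, SE 0.280, edgeR adjusted p = 0.495).

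Secreted signals, transcription factors, a receptor and enzymes of limb patterning that act with these genes formed a list of 28. Of these, 13 were tested, 2 called higher and 3 lower, beside 10.8% of all tested genes called. At 0 in all libraries were 7 of the 28, among them Shh, Fgf4 and Hand2. Grem1, the BMP antagonist that sustains the outgrowth of the limb bud, rose from 3110 and 2936 normalized counts to 23998 and 24468, 8.02-fold (edgeR adjusted p = 1.3e-19). Tbx3, a T-box repressor, rose from 446 and 476 to 4741 and 5081, 10.6-fold (log2 fold change 3.41, edgeR adjusted p = 1.9e-17). These 2 genes were the ones called higher. Wnt7a, the dorsal ectodermal signal that En1 represses in the limb bud, fell along with En1, from 312 and 286 to 37.3 and 41.6 (log2 fold change -2.92, SE 0.160, edgeR adjusted p = 1.1e-10). Wnt5a fell from 3436 and 3428 to 576 and 528 (log2 fold change -2.64, edgeR adjusted p = 3.4e-16), and Rspo2, an enhancer of Wnt signalling, from 2881 and 2728 to 1152 and 1037 (log2 fold change -1.36, edgeR adjusted p = 2.2e-12). Bmp4, a signal upstream of Msx1 in many tissues, had 1447 and 1417 in wt and 1138 and 1063 in Top2β-null MEF cells (log2 fold change -0.38, not called).

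Genes named in the literature as targets of the 9 factors formed a list of 11, which shares Wnt7a, Bmp4 and Tbx4 with the limb signals and Alx1 with the paralogues. Of these 11, 6 were tested, 2 were called higher and 1, Wnt7a, was called lower, beside 10.8% of all tested genes called. Dcn, the proteoglycan decorin, which is linked to Lmx1b, rose from 226 and 223 normalized counts to 7053 and 7239, 31.8-fold (log2 fold change 4.99, SE 0.0496, edgeR adjusted p = 8.4e-20). Col4a4, a basement membrane collagen also linked to Lmx1b, had 140 and 113 in wt and 257 and 276 in Top2β-null MEF cells, and its call (log2 fold change 1.08, SE 0.134, edgeR adjusted p = 3.0e-06) was lost without wt replicate 2. Of the other Lmx1b targets listed, Kera was at 0 in all libraries and Col4a3 was not called (log2 fold change 0.89). Lmx1b itself had 4 counts in wt replicate 1 and 0 in the other libraries. Tbx4, the hindlimb target of Pitx1, had at most 2 counts in any library.

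Genes lying around the 9 loci were compared next. Within 250 kb of the starts of the 9 genes, 70 annotated genes begin, 39 were tested, and 1 of these was called. No neighbour of Msx1, Shox2 or En1 was called, but few could be: Msx1 and Shox2 each had 1 neighbour over the mean cut-off, and En1 had 0. Around Msx1, the only tested neighbour of 7 was Stx18, a syntaxin gene 214159 bp upstream, with 1798 and 1726 normalized counts in wt and 2059 and 2216 in Top2β-null MEF cells (log2 fold change 0.28). Around Meis2, G630016G05Rik begins 1386 bp upstream and had 139 and 153 normalized counts in wt and 260 and 293 in Top2β-null MEF cells (log2 fold change 0.92, not called). The called neighbour was Cd82, a tetraspanin gene 179244 bp upstream of Alx4, which went from 2301 and 2344 to 1028 and 1019 (log2 fold change -1.18, SE 0.0481, edgeR adjusted p = 2.4e-12). The 1 called gene is 2.56% of the 39 tested, beside 10.8% of all genes tested, and 25 of the 39 were over the mean cut-off. Over the whole table, 16656 tested genes were over the mean cut-off and 2702 of these were called.

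**Figure D5:**
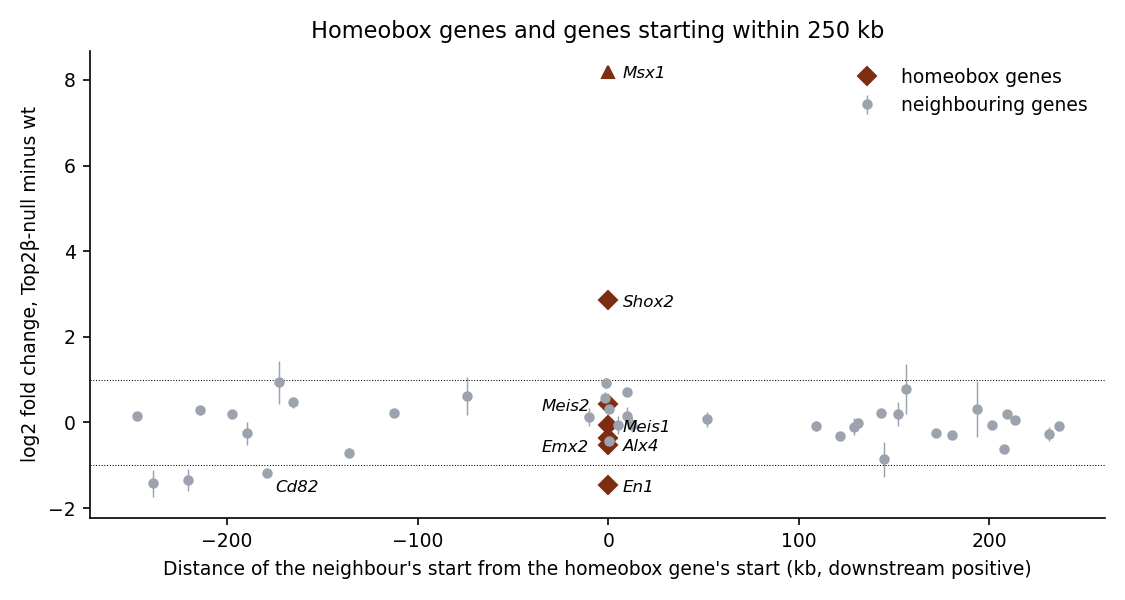
Log2 fold change, Top2β-null minus wt (vertical axis, bars of 1 SE), of tested genes that start within 250 kb of the 9 loci, against the distance of their start from the start of the homeobox gene in kb (horizontal axis, downstream positive). The homeobox genes stand at 0, with Msx1 at its lower bound, and Cd82 is the neighbour that was called.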

How the data were processed

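The measured material was ribosomal RNA-depleted total RNA of 2 wild-type and 2 Top2beta null MEF libraries. For each gene and repeat family the deposited table gives raw counts, which the authors made from trimmed paired-end reads aligned to mm10 (GRCm38, also named in the submitters' processing notes) with STAR and counted with TEtranscripts, without normalization. How TEtranscripts treated strand and reads with several alignments was not given in the sources used here, and reads of close paralogues may be shared between them. The table was fitted whole.

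Gene names, positions and exon lengths came from GENCODE M21 (54495 of 54842 identifiers matched). Features with at least 10 counts in 2 or more libraries were kept (25085 genes and 1481 of 1562 repeat families). In R 4.3.3, edgeR 4.0.16 (limma 3.58.1) fitted genotype as the only term of a quasi-likelihood model, with Benjamini-Hochberg adjustment of all p-values. Each standard error (SE) was derived from the F statistic, as the size of the log2 fold change over its root. Intervals and floors cover counting error only. The replicates were farther apart than counting noise, with a chi-square of 3.65 per degree of freedom between the wt libraries and 5.07 between the Top2β-null libraries. On simulated counts, 200 of 200 changed features passed an adjusted p of 0.05 in the right direction, 155 of them over the mean cut-off and called, and none of the unchanged ones was called, though 10 passed the adjusted p.

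The genes and lists, and the alternatives, were chosen with earlier results of these data known. Named were the 9 genes, Top2b, called list members (at most 6 a list, by size), genes that overlap a locus, called neighbours within 250 kb and, for the 2 genes with the largest called rise and fall, the 2 nearest patterns. A few genes of the lists are not reported here, and the list counts and sums leave them out. Stx18 and G630016G05Rik were named after their values were seen. The alternatives were DESeq2 1.42.0, TMM factors from genes only, total-count scaling, no filter on low counts, at least 100 counts in every library, the replicate block, no cut-off other than the adjusted p, and the omission of each library.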

Additional observations from a re-analysis of the deposited data

How the results depend on the processing

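Of 204 alternative values of the fold changes of 21 named genes, 202 kept their direction and their side of the adjusted p threshold. Where a library was left out, its genotype kept a single library, which the fit takes to vary like the pair of the other genotype. The other 2 values were Alx4, at 0.22 without Top2β-null replicate 2 (range -1.25 to 0.22 with a library left out), and Meis1, at 0.0039 with total-count scaling, which moved the median of all genes to 0.06. A filter of at least 100 counts in every library removes Msx1, Lhx2 and Wnt7a by construction and left 1 of the 9 genes called higher, 1 of the other limb homeobox genes higher, 2 limb signals in place of 3 lower and 0 targets lower. Without either Top2β-null library Msx1 has counts in a single library and is not tested, so the number called higher ranged from 1 to 2. With a library left out, partner proteins called lower ranged from 0 to 1 (Ldb2, without Top2β-null replicate 1), targets called higher from 1 to 2 (Col4a4, without wt replicate 2) and neighbours called higher from 0 to 1 (without Top2β-null replicate 1). Total-count scaling gave 0 partner proteins lower. By an adjusted p below 0.05 alone, which 66.4% of all tested genes passed, 3 of the 9 genes were higher and 2 lower, 5 partners higher and 7 lower, 4 other limb homeobox genes higher and 4 lower, 5 limb signals higher and 6 lower, 4 targets higher and 2 lower, and 11 neighbours higher and 10 lower. The alternatives for neighbours and for list genes were added after seeing the data. Without division by length, Meis1 made up 17.6% of Meis1 and Meis2 in wt and 13.2% in the Top2β-null cells. Same-numbered libraries did not deviate together (correlation 0.0197 over 17952 features), and with the replicate number as a block 2 of the 9 genes were called higher and 1 lower, as without the block, with 1386 and 1318 of all genes against 1385 and 1317. Depth limits Pitx1, Alx4 and Lmx1b, at 20 counts or fewer summed over a genotype.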
